A study of Mus musculus with 743 samples.

Results

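The 42 respiratory chain genes described here are the 13 protein-coding genes of the mouse mitochondrial genome and 29 nuclear genes for subunits of complexes I, III and IV and for cytochrome c. They were given as a list of symbols whose rule uses no measured value, and all 42 were found in the count table of 25700 genes. RNA was measured cell by cell in Schwann cells (SCs), which ensheath the axons of peripheral nerves, isolated at postnatal day 1 from mouse sciatic nerve. The mice carried a Cre transgene active in the SC lineage, the eYFP reporter in the Rosa26 locus that this Cre switches on, and beta-actin dsred, all within 1 untreated group. Cells positive for eYFP were sorted singly into 384-well plates and their full-length cDNA was sequenced with Smart-seq2, which has no molecular identifiers. The 2 plates were filled from separate pools of mice of both sexes, and the plate was therefore the replicate (n = 2). By the study's methods a pool held 1 male and 1 female mouse, and the labels also set the plates apart as technical runs 1 and 2.

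The respiratory chain passes electrons from NADH through complex I, complex III, cytochrome c and complex IV to oxygen, and the proton gradient that builds up drives the ATP synthase, complex V. Its enzymes are products of 2 genomes. The mitochondrial genome is copied in many molecules per cell and is transcribed as long precursors from both strands that are cut into single mRNAs. It encodes 13 subunits of complexes I, III, IV and V, while the nucleus encodes the remaining subunits, core and accessory. SCs at this age range from dividing cells to cells that have singled out an axon and begun to turn on myelin genes.

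A well was kept when at least 1500 genes were detected, which left 621 of 743 wells. Cells with Mki67 and Top2a together at 50 CPM or more (CPM are the reads of a gene when those of the cell are scaled to 1000000) were called cycling (53 cells on plate 1 and 57 on plate 2). The remaining cells with Ncmap, a gene of non-compact myelin, at 50 CPM or more were called promyelinating (59 and 60 cells), and the rest were called other (175 and 217 cells). Reads were summed over the cells of a plate and class, which gave 6 sums of 45073128 to 172878954 reads. The classes matched further markers that had no part in the gates. Of 7 cell cycle genes, 6 were higher in cycling than in other cells, and of 12 myelination genes, 9 were higher in promyelinating than in other cells (edgeR quasi-likelihood test, adjusted p below 0.05). In these comparisons 0.978% and 1.78% of all genes were called, in either direction. The lists were chosen with earlier results of these data known. Of the 4 SC markers, S100b was higher in promyelinating than in other cells. Summed over each list, the 4 red blood cell genes stayed at or below 0.1 CPM, the 5 endothelial genes at or below 2.91 CPM and the 4 muscle genes at or below 3.48 CPM. The 3 fibroblast genes summed to 0 to 36.7 CPM, the 4 immune genes to 2.77 to 20.7 CPM and the 4 mural genes to 24.8 to 56.8 CPM. Of the mural genes, Pdgfrb had no read in cycling cells and differed between them and both other classes.

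The sequence of several mitochondrial members recurs in the nuclear genome, and the level at which they were counted has to be read beside it. In the GENCODE M21 annotation of GRCm38, 7 unprocessed pseudogenes on chromosome 1 lie end to end on the minus strand at chr1:24611535-24616197, in the order of the mitochondrial genome from the 3′ end of mt-Co1 to the middle of mt-Nd4. Within this stretch of 4.66 kb, copy and original kept the same spacing to within 1 base. The copies of mt-Co2, mt-Co3, mt-Atp6, mt-Nd4l and mt-Nd4 had 0 differences over their annotated length. The pair of mt-Co2 (chrM:7013-7102, plus strand) and Gm28661 (chr1:24615476-24615565) is shown as an example of identity over the first 90 bases.
mt-Co2: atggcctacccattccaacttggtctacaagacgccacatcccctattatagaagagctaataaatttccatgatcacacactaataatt
Gm28661: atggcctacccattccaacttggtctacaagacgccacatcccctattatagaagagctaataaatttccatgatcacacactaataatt
The copy of mt-Nd3, Gm28438, differed at 1 of 345 positions (T3C, counted from the first base of the gene). The first 90 bases of mt-Nd3 (chrM:9459-9548) and Gm28438 (chr1:24613030-24613119) are printed with the differing base in capitals.
mt-Nd3: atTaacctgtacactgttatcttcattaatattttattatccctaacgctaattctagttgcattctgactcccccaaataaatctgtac
Gm28438: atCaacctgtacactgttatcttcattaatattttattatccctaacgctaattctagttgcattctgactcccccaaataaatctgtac
The edge of the copied stretch lies in mt-Co1, where Gm29216 begins at base 1054 of the gene. Bases 1054 to 1143 of mt-Co1 (chrM:6381-6470) and the start of Gm29216 (chr1:24616108-24616197) show 6 differences, in capitals, all at the left end, and none after them.
mt-Co1: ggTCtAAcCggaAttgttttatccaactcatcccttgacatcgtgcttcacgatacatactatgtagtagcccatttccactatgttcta
Gm29216: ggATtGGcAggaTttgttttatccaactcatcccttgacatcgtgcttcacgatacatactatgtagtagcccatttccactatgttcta
For mt-Cytb, the member with the most reads, no run of 50 bases recurred in another annotated transcript, and its first 90 bases (chrM:14145-14234) are given for comparison.
mt-Cytb: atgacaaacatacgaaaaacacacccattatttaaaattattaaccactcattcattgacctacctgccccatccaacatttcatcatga

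The share of all 50-base runs of a member that recurred in the transcript of a gene elsewhere put numbers on this. It was 100% for mt-Co2, 99.9% for mt-Co3, 99.5% for mt-Atp6, 98.8% for mt-Nd4l and 98.0% for mt-Nd3. It was 62.2% for mt-Nd4 and 51.1% for mt-Co1, which also has a full-length copy on chromosome 2 (Gm13340, 97.6% identical). The remaining 6 mitochondrial members were below 10%, with mt-Nd2 at 8.19%, mt-Nd5 at 7.61% and mt-Nd1, mt-Nd6, mt-Atp8 and mt-Cytb at 0%. Nuclear members had recurring runs too. Of these 29 genes, 16 had none and 5 were above 10%. The 5 were Cycs at 26.15%, Uqcrb at 25.42%, Cox7c at 22.11%, Ndufs3 at 16.1% and Cox5b at 11.94%. mt-Atp8 has no annotated copy, but the 233 bases between the copies of mt-Co2 and mt-Atp6 on chromosome 1 match in number the 233 bases between the same ends in the mitochondrial genome, which hold most of mt-Atp8. A counter that drops reads with several placements would lose reads of such genes, and how these reads were treated was not given in the sources used here. The pseudogenes, the mitochondrial rRNAs and the mitochondrial tRNAs were not analysed here.

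The mitochondrial members spanned more than 4 orders of magnitude in counted level, although they are cut from common precursors. mt-Cytb, the only mitochondrial subunit of complex III, had 17085 and 14652 CPM in cycling cells, 20219 and 18728 CPM in other cells and 22972 and 22012 CPM in promyelinating cells on plates 1 and 2. It took 49.0% of all mitochondrial reads. mt-Co1, the catalytic subunit of complex IV, had 6452 and 7056 CPM in cycling, 7086 and 7965 CPM in other and 7632 and 8775 CPM in promyelinating cells. mt-Nd1, a membrane subunit of complex I, had 5107 and 6800, 6104 and 8049, and 7719 and 8904 CPM in the same order. For mt-Cytb the 3 classes did not overlap, while other cells overlapped with promyelinating cells for mt-Co1 and with both classes for mt-Nd1.

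Among the further complex I subunits, mt-Nd4 had 2209 and 2161 CPM in cycling, 2621 and 2516 CPM in other and 2833 and 2857 CPM in promyelinating cells, again without overlap of the classes. mt-Nd5 had 830 and 779, 960 and 762, and 1287 and 919 CPM. mt-Nd2 had 571 and 765, 739 and 1033, and 850 and 958 CPM. In both genes other cells overlapped with the 2 further classes. mt-Nd4l, the smallest of them, had 803 and 525, 916 and 575, and 931 and 595 CPM, and mt-Nd3 had 67.6 and 82.7, 85.7 and 108, and 98.1 and 122 CPM. mt-Nd6, the only protein encoded on the opposite strand, had 83.5 and 174, 87.6 and 148, and 122 and 243 CPM. In mt-Nd4l and mt-Nd6 the plates lay further apart than the classes.

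mt-Co3 and mt-Atp6, a core subunit of complex IV and the proton channel subunit of complex V, were counted at far lower levels than mt-Cytb, mt-Co1 and mt-Nd1. mt-Co3 had 63.3 and 126 CPM in cycling, 68.9 and 152 CPM in other and 72.7 and 176 CPM in promyelinating cells. mt-Atp6 had 64.3 and 256, 73.0 and 302, and 81.3 and 366 CPM. mt-Co2, a catalytic subunit of complex IV, and mt-Atp8, a small subunit of complex V, were close to absent from the table, with 303 and 228 reads in all 621 cells against 10285657 reads for mt-Cytb. mt-Co2 stayed between 0.399 and 0.826 CPM in the 6 sums and had a read in 33.3% of cells. mt-Atp8 had 1, 4 and 0 reads in the cycling, other and promyelinating cells of plate 1 and 39, 142 and 42 reads on plate 2.

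**Figure D1:**
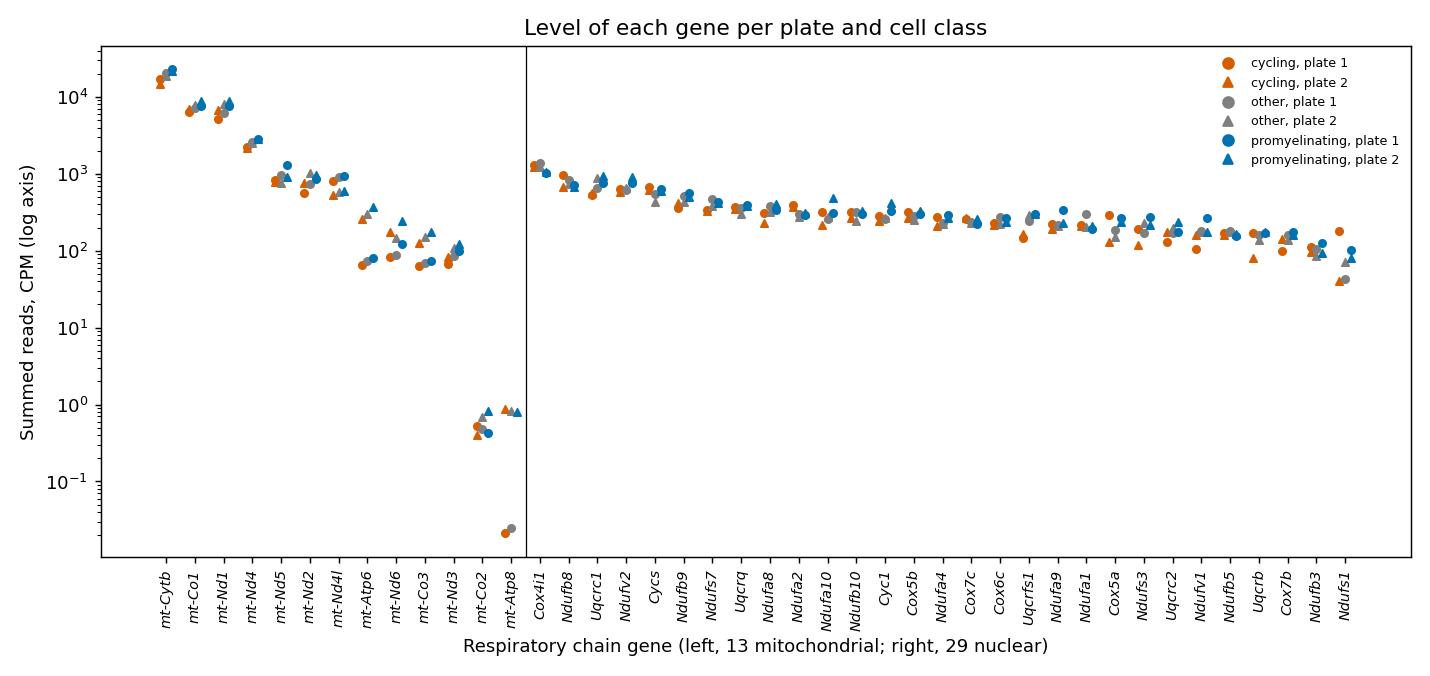
Reads of each gene in CPM (log axis) for the 6 sums, with the colour giving the class and the symbol the plate; a sum without a read (mt-Atp8, promyelinating, plate 1) has no point. The nuclear genes lie within 40.2 and 1380 CPM, while the mitochondrial genes range from below 1 CPM in mt-Co2 to 22972 CPM in mt-Cytb.

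Per kb of mRNA, mt-Cytb was counted at 16851 CPM, mt-Nd1 at 7433, mt-Co1 at 4851, mt-Nd4l at 2438 and mt-Nd4 at 1838 CPM. mt-Nd2 followed at 789 and mt-Nd5 at 506 CPM per kb. mt-Atp6, mt-Nd6, mt-Nd3 and mt-Co3 lay at 280, 276, 270 and 140 CPM per kb, and mt-Atp8 and mt-Co2 at 2.07 and 0.813 CPM per kb. The 5 members with over 90% recurring runs had a median of 270 CPM per kb and the 6 members below 10% a median of 648 CPM per kb, with ranges that overlapped widely. mt-Nd4l was high in spite of a recurrence of 98.8%, and mt-Nd6 was low without any. How far the recurrence accounts for the counted levels was not tested.

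**Figure D2:**
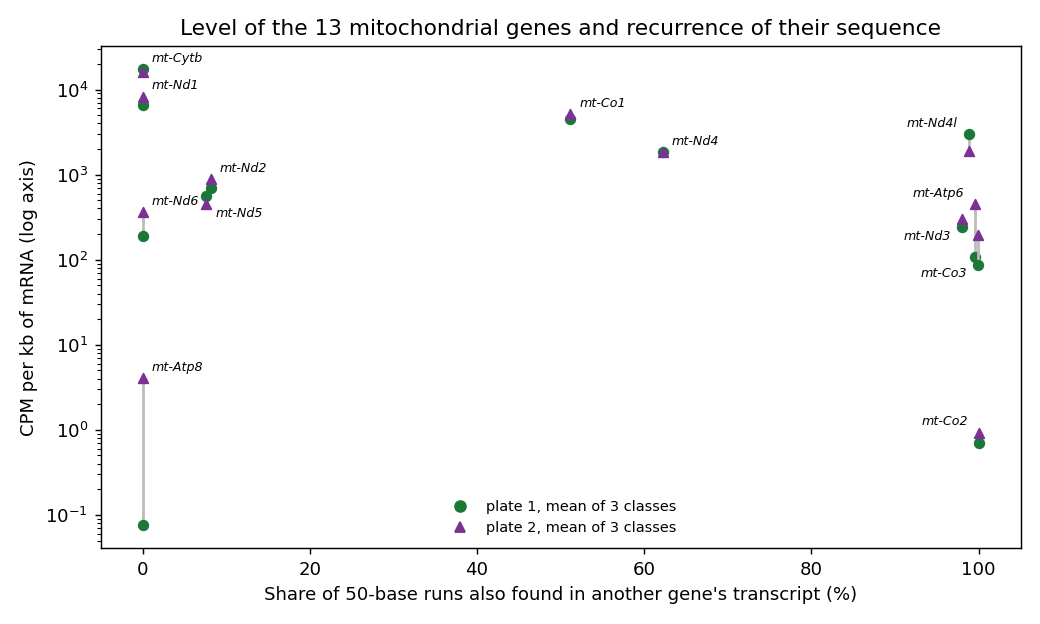
Level of the 13 mitochondrial genes in CPM per kb (log axis), as the mean of the 3 classes on each plate, against the share of their 50-base runs found in the transcript of another gene. mt-Co2 lies at 100% and below 1 CPM per kb, mt-Nd4l at 98.8% and 2438 CPM per kb, and mt-Atp8 at 0% and 2.07 CPM per kb in the mean of both plates.

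The plates differed in some mitochondrial members in the same direction in every class. Plate 2 was 4.22 times higher in mt-Atp6, with log2 ratios of 1.99, 2.05 and 2.17 in cycling, other and promyelinating cells. It was 2.21 times higher in mt-Co3 and 1.93 times higher in mt-Nd6, and mt-Nd4l stood at 0.64 of plate 1. mt-Cytb, mt-Nd4 and mt-Co1 lay within 0.919 and 1.12 of plate 1. Of 40 members at 50 CPM or more, mt-Atp6 and mt-Co3 exceeded a factor of 2, as did 1.73% of the 3705 genes at that level. All nuclear members lay between 0.588 and 1.26. With 1 plate per pool of mice, mice, plate and technical run cannot be told apart in these ratios, and they widen the intervals of the affected genes in the comparisons of classes.

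**Figure D3:**
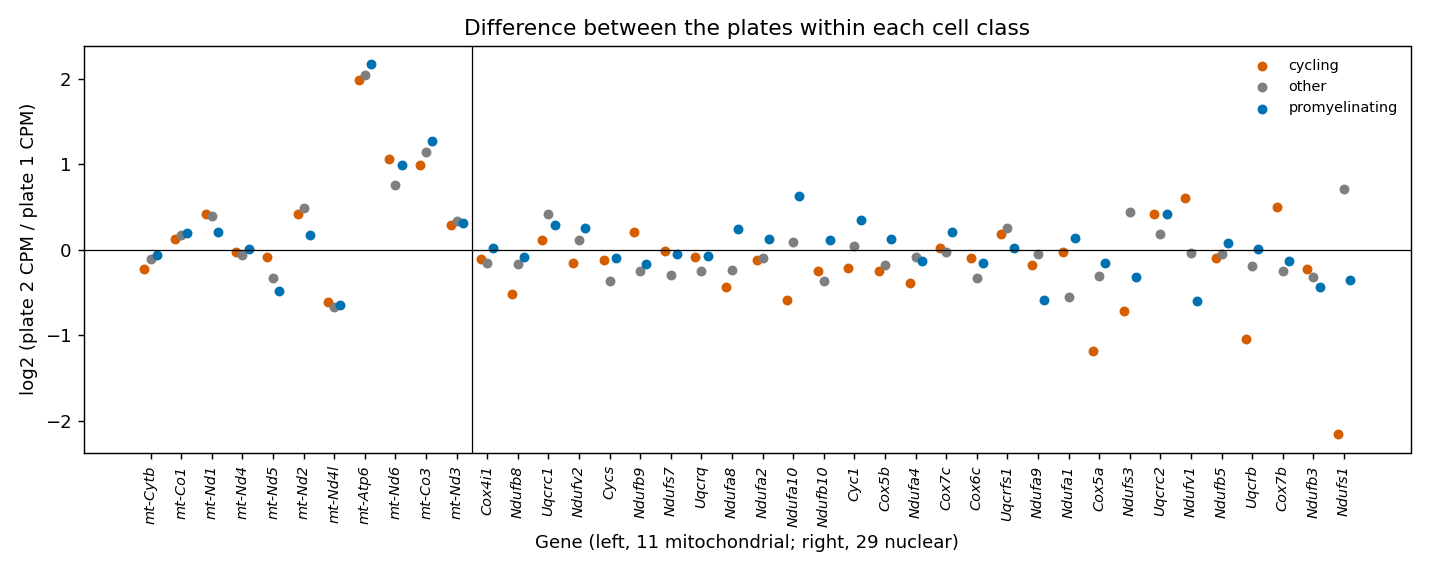
Log2 ratio of plate 2 to plate 1 for 40 genes, 1 point per class; mt-Co2 and mt-Atp8 are left out for their few reads. The points of mt-Atp6 lie at 1.99 to 2.17 and those of mt-Nd4l at -0.61 to -0.67, while the points of single nuclear genes scatter around 0 and reach -2.16 for Ndufs1.

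The summed mitochondrial mRNA differed between the classes by less than 1.4-fold, in the same order on both plates. It made up 3.33% and 3.34% of the reads in cycling cells, 3.90% and 4.03% in other cells and 4.46% and 4.59% in promyelinating cells (3.34% ± 0.00286, 3.97% ± 0.0974 and 4.53% ± 0.0942, SD, n = 2). Promyelinating cells were thus 1.14 times above other cells on both plates and 1.34 and 1.38 times above cycling cells, and cycling cells were at 0.856 and 0.827 of other cells. The classes did not overlap. An exact two-sided permutation test of 2 plates against 2 cannot go below a p of 0.333, and none was made. A higher share of the reads of a cell cannot be told apart from fewer reads of other genes.

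Single cells overlapped widely between classes. On plate 1 the share ranged from 1.26% to 7.29% in cycling cells (median 3.03%), from 0.991% to 10.6% in other cells (median 3.67%) and from 1.36% to 8.45% in promyelinating cells (median 4.36%). On plate 2 the medians were 3.29%, 4.01% and 4.48%. The order of the classes was that of the sums. Cycling and promyelinating cells had more detected genes (medians of 3425 to 3690) than other cells (2775 and 2819). Within a plate and class, the mitochondrial share and the number of detected genes of a cell had a Spearman's rho of -0.27 to -0.19 in 5 of the 6 groups of cells and of 0.03 in other cells of plate 2. The 8 dissociation response genes, which rise during enzymatic cell isolation, summed to 2205 and 2418 CPM in promyelinating cells, against 5842 and 6380 CPM in other and 4726 and 7160 CPM in cycling cells. The part of detected genes, of these response genes and of the position of a well on its plate in the difference was not tested.

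The 29 nuclear members together made up about 1% of the reads. They took 0.994% and 0.871% in cycling cells, 1.00% and 0.941% in other cells and 1.05% and 1.08% in promyelinating cells (0.933% ± 0.087, 0.971% ± 0.0427 and 1.06% ± 0.0189). Cycling and other cells overlapped. Promyelinating cells were 1.05 and 1.14 times above other cells and 1.06 and 1.24 times above cycling cells.

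The ratio of mitochondrial to nuclear reads was 3.35 and 3.83 in cycling, 3.89 and 4.29 in other and 4.25 and 4.26 in promyelinating cells (3.59 ± 0.338, 4.09 ± 0.28 and 4.26 ± 0.013, SD, n = 2). Cycling cells lay below the other 2 classes. In cells of at least 2500 genes they overlapped with other cells (3.23 and 4.12 against 3.68 and 4.09). Promyelinating and other cells did not differ beyond the spread of the plates, with 1.09 times the ratio of other cells on plate 1 and 0.995 times on plate 2.

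**Figure D4:**
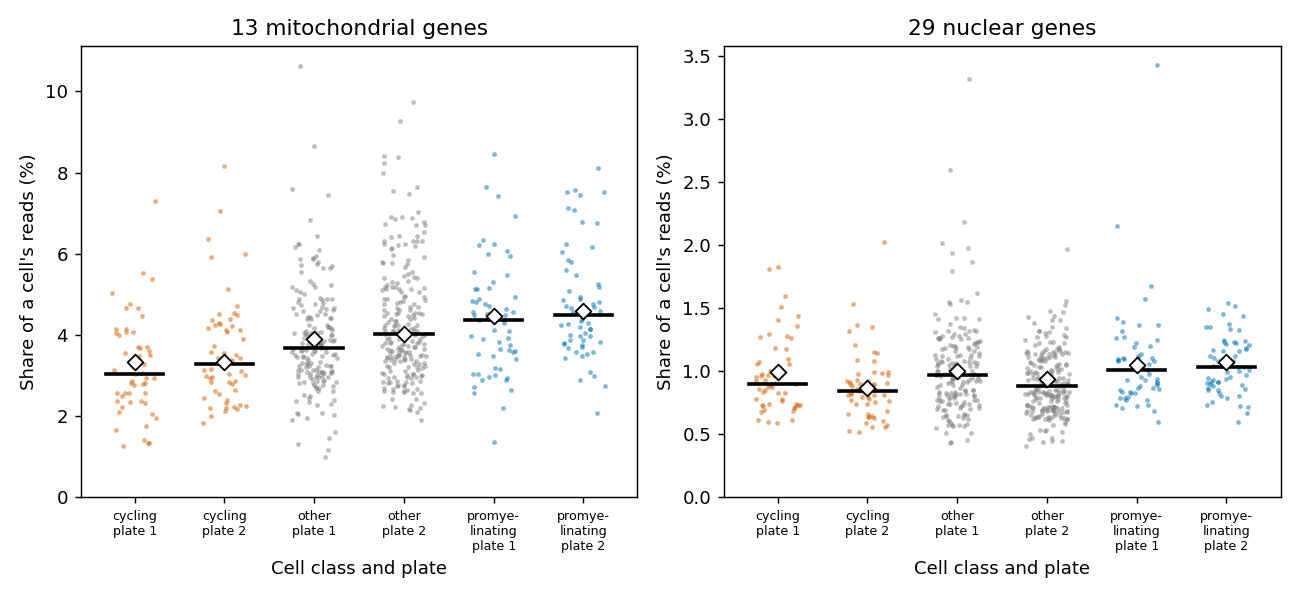
Share of a cell's reads in percent for the mitochondrial (left) and the nuclear genes (right). Each dot is a cell, the bar is the median of the cells, and the diamond is the share in the summed reads, which rises from 3.33% and 3.34% in cycling to 4.46% and 4.59% in promyelinating cells for the mitochondrial genes.

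Tested gene by gene against all 13289 genes that passed the filter on low counts, nearly all members stayed below the threshold. All 42 members passed that filter. In promyelinating against other cells 0 of 42 members were called by edgeR at an adjusted p below 0.05 (background 1.78% of genes), and 2 had an unadjusted p below 0.05. In cycling against other cells 0 of 42 were called (background 0.978%), and 3 had an unadjusted p below 0.05. In promyelinating against cycling cells 1 of 42 was called (background 5.93%), and 5 had an unadjusted p below 0.05. Of all 13289 genes, 1483, 1336 and 2665 had an unadjusted p below 0.05 in the same order of comparisons (edgeR). DESeq2 called 0, 0 and 3 members in these comparisons. The comparisons share sums with each other. The median half-width of the 95% interval was 0.54 on the log2 scale for members in each comparison, against 1.92 to 1.93 for all genes. The whole interval lay within a 2-fold change for 28, 32 and 25 of the 42 members in the 3 comparisons.

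**Figure D5:**
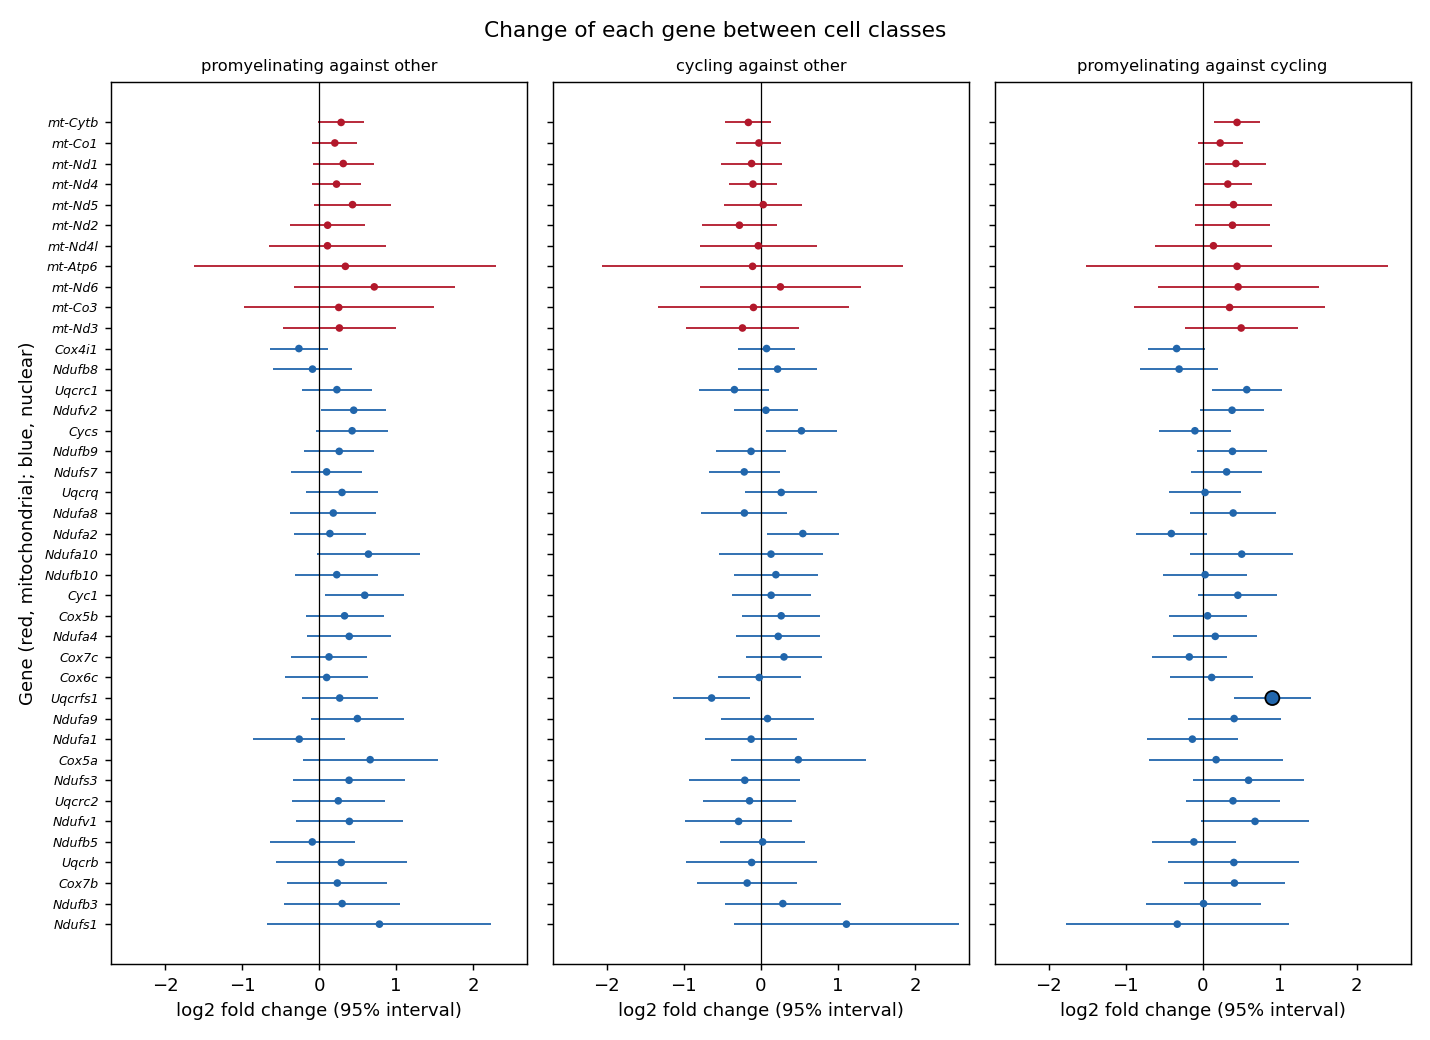
Log2 fold change of 40 genes in the 3 comparisons with 95% intervals from edgeR; mt-Co2 and mt-Atp8 are left out because their intervals exceed 5 on either side. The larger outlined point is Uqcrfs1, the gene past the threshold, and the intervals of mt-Cytb, mt-Nd1, mt-Nd4 and Uqcrc1 also lie above 0 in promyelinating against cycling cells.

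Beside a background of 5.93% of genes, 1 of 42 members was called in promyelinating against cycling cells. This was Uqcrfs1, the Rieske iron-sulfur protein that takes electrons from ubiquinol in complex III. The gene (chr13:30540308-30545362, minus strand) had 146 and 166 CPM in cycling cells, 243 and 289 CPM in other cells and 301 and 304 CPM in promyelinating cells. The classes were ordered without overlap, as in the mitochondrial share. It was 1.87-fold higher in promyelinating than in cycling cells (0.91 ± 0.22 on the log2 scale with its SE, edgeR adjusted p = 0.0493), and the log2 ratios on the plates were 1.05 and 0.87. With the plate as a block the adjusted p was 0.0319. The call was lost without any one of the 6 sums (edgeR adjusted p of 0.0877 to 0.157) and with class thresholds at 20 CPM or cells of at least 2500 genes (0.074 and 0.0696). Against other cells, it stood at 0.27 ± 0.22 in promyelinating and at -0.64 ± 0.22 in cycling cells, with edgeR adjusted p of 0.765 and 0.352. A read of Uqcrfs1 was found in 85.7% of promyelinating cells over both plates, against 62.3% and 57.9% of cycling and 56.6% and 58.1% of other cells on plates 1 and 2.

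The other nuclear members of complex III were centred above 0 in promyelinating against cycling cells without being called. Uqcrc1, a core protein and the member of complex III and cytochrome c with the highest level per kb, had 529 and 571 CPM in cycling, 656 and 875 CPM in other and 763 and 935 CPM in promyelinating cells. Its log2 fold change of 0.57 ± 0.20 between promyelinating and cycling cells had an edgeR adjusted p of 0.156, and of 0.043 by DESeq2. Cyc1, cytochrome c1, had 279 and 241 CPM in cycling, 256 and 263 CPM in other and 327 and 415 CPM in promyelinating cells, which did not overlap with either class. Against other cells it stood at 0.59 ± 0.23 (edgeR adjusted p = 0.364). Uqcrc2, the partner of Uqcrc1 and the lowest per kb at 95.1 CPM, had 130 and 173, 172 and 195, and 177 and 236 CPM. The summed reads of the 6 nuclear complex III genes were 1.16 and 1.18 times those of other cells in promyelinating cells and 0.881 and 0.768 times in cycling cells. Cycs, the cytochrome c that shuttles between complexes III and IV, had 668 and 617 CPM in cycling and 644 and 602 CPM in promyelinating cells, against 549 and 427 CPM in other cells. Its log2 fold change of 0.53 ± 0.20 in cycling against other cells had an edgeR adjusted p of 0.43. Ndufa2, an accessory subunit of complex I, stood at 0.54 ± 0.20 in the same comparison (edgeR adjusted p = 0.417). Cycs and Ndufa2 were named after their values were seen, as the members above 0 with an unadjusted p below 0.05 there.

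Of the mitochondrial members, mt-Cytb and mt-Nd1 were called or not depending on the fit. In promyelinating against cycling cells mt-Cytb stood at 0.45 ± 0.13 (edgeR adjusted p = 0.0951) and mt-Nd1 at 0.43 ± 0.17 (edgeR adjusted p = 0.211). With the plate as a block, since the sums of a plate come from the same mice, both passed, with edgeR adjusted p of 0.00802 and 0.0149. In that fit 3 members were called in place of 1. mt-Nd1 passed with the block only. mt-Cytb also passed without it, by DESeq2 (adjusted p = 0.0457). By edgeR mt-Cytb passed without a filter, after thinning and in cells of at least 2500 genes (adjusted p of 0.0179, 0.0347 and 0.0296). mt-Nd4, at 0.33 ± 0.14, had adjusted p of 0.231 without and 0.0861 with the block (edgeR). The 13 mitochondrial members had a median log2 fold change of 0.39 in this comparison, from -0.16 in mt-Atp8 to 0.50 in mt-Nd3, and 12 of 13 lay above 0, as did 6477 of 13289 genes. Both plates of promyelinating cells were above both plates of cycling cells in 7 of 13 (background 24.6% of genes), and none was below (background 23.1%).

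The median over all 42 members was 0.26 in promyelinating against other cells, -0.02 in cycling against other cells and 0.36 in promyelinating against cycling cells, beside -0.07, -0.07 and -0.02 over all genes tested. Both plates were higher in promyelinating than in other cells for 14 of 42 members (background 16.4% of genes) and lower for 3 (background 28.1%). Both plates were higher in cycling than in other cells for 3 members (background 14.9%) and lower for 11 (background 28.7%). Both plates were higher in promyelinating than in cycling cells for 22 of 42 members (background 24.6%) and lower for 3 (background 23.1%).

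Nuclear complex I members showed no call in any comparison. Ndufb8, an accessory subunit and the highest per kb at 1135 CPM, had 978 and 682 CPM in cycling, 830 and 739 CPM in other and 722 and 679 CPM in promyelinating cells, with the plates of cycling cells further apart than the classes. Gm20538 overlaps it on the same strand over 4260 bases of the gene, so its count is uncertain, as is that of Ndufb9, which Gm49356 overlaps over 3604 bases. Ndufs1, a core subunit of the arm that oxidises NADH, was the lowest per kb at 32.4 CPM and had a read in 35.4% of cells. It had 180 and 40.2 CPM in cycling, 43.0 and 70.5 CPM in other and 103 and 80.9 CPM in promyelinating cells, and 3 cells held 25.1% of its reads. A read was found in 37.3% of cycling, 30.4% of other and 50.4% of promyelinating cells. Its log2 fold changes of 0.78 ± 0.64 in promyelinating and 1.11 ± 0.64 in cycling against other cells were the largest of the complex, and neither was called. Ndufv1, the subunit that binds NADH, had 106 and 161, 180 and 175, and 266 and 175 CPM, with 0.68 ± 0.31 in promyelinating against cycling cells (edgeR adjusted p = 0.258). Summed over the 15 nuclear complex I genes, promyelinating cells were 1.06 and 1.16 times and cycling cells 1.00 and 0.91 times the level of other cells.

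In complex IV, 0 of 7 nuclear members were called. Cox4i1, the most abundant of them in CPM, is overlapped over all its 5986 bases by Gm20388 on the same strand, and its counts have to be read as uncertain. It had 1304 and 1212 CPM in cycling, 1380 and 1237 CPM in other and 1027 and 1041 CPM in promyelinating cells. Both plates of promyelinating cells were below both plates of the other classes, at -0.26 ± 0.16 against other and -0.34 ± 0.16 against cycling cells, neither of which passed (edgeR adjusted p of 0.637 and 0.292). Cox5a, an accessory subunit, had 295 and 130, 185 and 150, and 265 and 237 CPM, and its plates differed most in cycling cells. Cox7b, the lowest of the complex per kb at 145 CPM, had 99.7 and 142, 161 and 136, and 174 and 158 CPM. The 7 nuclear complex IV genes together stood at 0.927 and 1.04 in promyelinating and at 1.01 and 0.999 in cycling cells, relative to other cells.

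Among themselves the nuclear members differed in abundance and in how evenly cells carried them. Their mean levels ran from 86.3 to 1200 CPM with a median of 249 CPM, and from 32.4 to 1569 CPM per kb with a median of 326. The median level per kb was 385 CPM for complex I, 216 CPM for complex III and 338 CPM for complex IV. A read was found in 35.4% to 99.5% of cells, with a median of 79.5%. Ndufa10 and Cox7c, named after their values were seen, show the range at a similar level, since Ndufa10 with 310 CPM had a read in 58.8% of cells and Cox7c with 245 CPM in 99.5%. Across the 29 genes the share of cells with a read followed the level per kb (Spearman's rho 0.78) more closely than the level in CPM (0.54), and it fell with mRNA length (-0.54). These are correlations across genes from the same libraries, and genes are not independent replicates. In Smart-seq2 a long mRNA gives more reads per molecule, which CPM does not correct.

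In the median, mitochondrial members varied together from cell to cell more than with the nuclear ones. Within a plate and class, mt-Cytb and mt-Nd1 had a Spearman's rho of 0.40 to 0.53 over 53 to 217 cells. Over the 11 mitochondrial and 14 nuclear members at 50 CPM or more with a read in at least 80% of cells, the median rho was 0.19 to 0.34 between mitochondrial genes, 0.07 to 0.21 between nuclear genes and -0.02 to 0.03 between the 2 sets. Single mitochondrial pairs ranged from -0.34 in cycling cells of plate 1 to 0.82 in cycling cells of plate 2. The values of a cell share its library and its total, and are given as a description. On plate 2 the mitochondrial share was often higher in wells of the last columns than of the first, in each class. The position of a well was not taken into account, and its part in these correlations was not tested.

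The genes that complete these complexes gave 1 call. Of 21 further complex I genes, 0 were called in promyelinating or cycling against other cells (backgrounds 1.78% and 0.978% of genes). In promyelinating against cycling cells 1 of 21 was called (background 5.93%). This was Ndufa13, an accessory subunit, with 254 and 241 CPM in cycling, 392 and 331 CPM in other and 518 and 547 CPM in promyelinating cells (1.05 ± 0.20, edgeR adjusted p = 0.0216). None of the 4 complex II, 3 further complex III, 5 further complex IV and 17 ATP synthase genes was called in the 3 comparisons. At an unadjusted p below 0.05 by edgeR, complex II had 1, 1 and 1 genes and complex III 0, 0 and 0. Complex IV had 0, 1 and 0 and the ATP synthase 2, 1 and 1. Of all 13289 genes, 1483, 1336 and 2665 reached that level. The order is promyelinating against other, cycling against other and promyelinating against cycling cells.

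The machinery that serves the 2 genomes was not called either, beside the same backgrounds of 1.78%, 0.978% and 5.93% of genes. Of 44 assembly factors 0 were called, with 0, 2 and 3 at an unadjusted p below 0.05 in the same order (edgeR). Over all 13289 genes, 1483, 1336 and 2665 were at that level. Of 26 genes for copying and expressing mitochondrial DNA 0 were called, with 1, 1 and 2 at that level (edgeR). Their summed reads were 1328 and 1248 CPM in other, 1262 and 1128 CPM in promyelinating and 1047 and 898 CPM in cycling cells. Of 8 transcriptional regulators, among them Ppargc1a, Nrf1 and Gabpa, 0 were called, with 0, 1 and 2 at that level (edgeR). Their sum was 155 and 157 CPM in other cells, 203 and 239 CPM in promyelinating cells and 220 and 235 CPM in cycling cells.

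Subunit isoforms known from muscle, lung, testis and other tissues were close to absent. Cox7b2, Cox8b and Cyct, the testis form of cytochrome c, had 0 reads in 621 cells. If cells are taken as independent draws, the upper 95% bound on the share of cells with a read is 0.483%. The cells come from 2 pools of mice, so this bound is approximate. Cox4i2 had 91 reads against 658930 for Cox4i1, and Cox6a2 had 175 reads, all in 1 cell in 621 (0.161%). Cox7a1 and Cox6b2 had a read in 5.31% and 4.03% of cells and Ndufa4l2 in 0.644%. Their ubiquitous counterparts Cox6a1, Cox6b1, Cox7a2 and Cox8a had 540, 423, 208 and 369 CPM in the mean of the 6 sums and a read in 92.9% to 98.4% of cells.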

How the data were processed

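The libraries are Smart-seq2 libraries of eYFP-positive SCs, 1 per well, on 2 plates. The authors mapped the reads with STAR (2.6.1c in the submitters' processing notes, which name the build GRCm38.p5, while the methods for these plates name another version and a human build), and per the methods featureCounts gave the deposited values, raw counts of reads per gene and well without normalization. Use of strand and treatment of reads with several placements are not given in the sources used here, so reads of overlapping genes, such as mt-Nd5 and mt-Nd6 or Cox4i1 and Gm20388, and of near-identical copies are uncertain. All 743 columns matched a sample title. Symbols came from GENCODE M21 (25587 of 25700 IDs matched).

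Although the rule for the genes uses no measured value, the genes, classes and lists were chosen with earlier results of these data known. A minimum of 1500 detected genes set aside 122 wells and left wells of 26673 to 2291613 reads (median 875315). Cells are not replicates, so the test ran on the 6 sums of counts, with edgeR 4.0.16 (TMM, filterByExpr, robust glmQLFit, glmQLFTest; 1 model for the 3 classes). The genes Mki67, Top2a and Ncmap, which define the classes, were not tested. Benjamini-Hochberg adjustment covered all genes tested. The SE was obtained by dividing the size of a log2 fold change by the root of its F statistic. CPM is relative to all reads of a sum, and CPM per kb divides by the length of the principal transcript. Shares, CPM and the counts of both plates carry no TMM scaling, so they can differ from the fitted log2 fold changes. In cycling against other cells, mt-Cytb had CPM log2 ratios of -0.24 and -0.35 on plates 1 and 2 and a fitted value of -0.16. No doublet caller was run, since wells received 1 cell each.

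Sums of a plate come from the same pool of mice, and their deviations from the class mean correlated across 3702 genes with r of 0.135 to 0.229. A fit that blocks on the plate was therefore an alternative. The others were DESeq2 1.42.0, RLE scaling, no filter, removal of mitochondrial reads, limma 3.58.1 on mean CPM (log2, with 1 added), sums of cells thinned to 100000 reads, other minimums of genes and CPM, and each sum left out. The fits were also run on simulated counts with independent sums. These leave out the correlation within a plate, and no result here rests on that run. Runs of 50 bases were compared with all GENCODE M21 transcripts on both strands, leaving out genes that overlap in place. A whole genome was not used here, so copies outside annotated transcripts were not counted.

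The named genes are the mitochondrial members, each called member, and per complex the nuclear members highest and lowest per kb and with the largest change. From other lists, called genes were named, up to 3 per comparison. The lists of marker genes serve to check the classes and are not repeated by name.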

Additional observations from a re-analysis of the deposited data

Results flagged for a closer look

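Among the 122 wells with fewer than 1500 detected genes, which entered no comparison, the mitochondrial mRNA share reached 98.3% of the reads. This well held 7362 mitochondrial reads among 7486 and 96 detected genes. It was marked because a signal appeared in data outside the comparisons. Of these wells, 4 lay above the highest kept cell (10.6%), with 403 to 11391 reads each, and 38 lay below the lowest kept cell (0.991%). Their median share was 1.89%, below the 3.82% of the kept cells, and the median was 2.07% over 83 wells of plate 1 and 1.1% over 39 wells of plate 2.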

How the results depend on the processing

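In promyelinating and in cycling against other cells 0 members were called under each of the 17 alternatives. In promyelinating against cycling cells the 1 call became 3 with DESeq2 (Uqcrc1, Uqcrfs1, mt-Cytb), 3 with the plate as a replicate block (Uqcrfs1, mt-Cytb, mt-Nd1), 2 without a filter and 2 after thinning to 100000 reads (each Uqcrfs1 and mt-Cytb), and 0 with class thresholds at 20 CPM. With cells of at least 2500 genes mt-Cytb was called and Uqcrfs1 was not. Leaving out any one of the 6 sums gave 0 calls. The lone sum left in a class was then assumed to vary like the others. The block changed no other call of a member. The cause of these differences was not tested. Of 2097 fold changes compared, 124 changed sign, and none of these was called.

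Over all genes, DESeq2 called 1024, 811 and 2326 genes in the 3 comparisons, against 237, 130 and 788 with edgeR, and the fit without a filter called 521, 316 and 1288, limma 384, 212 and 1358 and the thinned sums 367, 221 and 1061. With 1 sum left out, 120 to 218, 54 to 142 and 442 to 627 genes were called. Limma on mean CPM moved the median of all genes in cycling against other cells from -0.07 to -0.18.

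The mitochondrial share kept its order of classes on both plates under all alternatives. In cycling, other and promyelinating cells it was 3.16%, 3.84% and 4.42% as the median over cells, 3.15%, 3.69% and 4.36% in cells of at least 2500 genes, and 2.34%, 2.84% and 3.30% over the 6 mitochondrial members with under 10% recurring runs. Thinning gave 3.31% in cycling and 4.08% in other cells, and thresholds at 20 and 100 CPM gave 3.35% and 3.35% in cycling cells. The ratio of mitochondrial to nuclear reads in promyelinating cells was 4.05 as the median over cells, 4.30 after thinning, and 4.29 and 4.19 with minimums of 1000 and 2500 genes. With 2 plates, small standard deviations such as that of the cycling share are themselves uncertain. Few reads were counted for mt-Co2 and mt-Atp8, and their intervals are wider than 10 on the log2 scale.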
